A study of Mus musculus with 101 samples.

Results

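The comparison set 12 sarcomatoid mammary tumours of the mouse genotype KB1(L1363P)P, labelled as 0% epithelial, against 9 tumours of the same genotype labelled as at least 75% epithelial. The members were taken from the labels for genotype, histology and epithelial percentage, and no measured value served as a criterion. Earlier results of these data were known when this choice was made. They are 21 of the 24 KB1(L1363P)P tumours and of the 98 tumours profiled. The 9 epithelial-rich tumours were 3 adenocarcinomas (tumours 7.2, 26.2 and 52, each labelled 100% epithelial) and 6 carcinosarcomas (tumours 54.2, 45, 53, 54.1, 6 and 21.1, labelled 75%, 85%, 85%, 90%, 95% and 98%). The other 3 KB1(L1363P)P tumours were carcinosarcomas of 2%, 5% and 40% epithelial content and stayed outside both groups. A further adenocarcinoma, titled and labelled KB1P but with L1363P in its description, entered neither group and counts only among the 98 tumours. Tumours are called here by the number in their titles.

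Both groups carry the same alleles, as far as the labels give them. By the convention for such conditional models, Cre recombinase driven from a keratin promoter deletes Trp53 in mammary epithelium, and L1363P is a missense variant in the coiled-coil domain of Brca1, through which Brca1 binds Palb2 in homologous recombination. The labels do not give the animals' age, and whether 2 tumours came from 1 animal is not stated, so each p-value reflects spread among tumours and not among animals. Numbers before the point are shared by tumours 7.1 and 7.2, 26.1 and 26.2, and 54.1 and 54.2. The 12 sarcomatoid tumours were all in library series 5289, together with 5 epithelial-rich tumours (6, 7.2, 21.1, 26.2 and 45); the other 4 (52, 53, 54.1 and 54.2) were in series 5490. Values restricted to series 5289 are therefore given beside the results that change there.

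Genomic DNA was sequenced at low coverage, and each sample had 3 deposited values for each of 43513 gene symbols: a log2 ratio, the same ratio after segmentation (here the segment value) and a whole-number copy score with 2 as neutral. Read depth is unknown. The noise between neighbouring log2 ratios was 0.05 ± 0.0017 (SD, n = 12) in sarcomatoid and 0.05 ± 0.0041 (SD, n = 9) in epithelial-rich tumours. In the 3 spleens, of the genotypes KB1(L1363P)P, KB1P and KP, no gene had a copy score other than 2. DNA came from whole tumour pieces, so the share of tumour cells in a sample and the copies per tumour cell cannot be told apart.

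As background, sarcomatoid tumours are made of spindle-shaped cells that have lost epithelial features, and carcinosarcomas hold both epithelial and spindle-shaped parts. Yap1 is the transcriptional coactivator at the end of the Hippo pathway: when the Mst and Lats kinases are inactive, it enters the nucleus and drives growth genes together with Tead factors. Met is the receptor tyrosine kinase for hepatocyte growth factor and signals through Ras and the MAP kinases. Focal amplification, a short stretch of chromosome copied many times, is a known route by which either gene is activated in mammary tumours of mice that lack Trp53.

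The sequences below belong to the amplified regions around Yap1 and Met. The first pair is the miRNA gene Mir5618, which lies between Tmem123 and Birc2 in the stretch amplified in each Yap1-amplified sarcomatoid tumour; its mature arms (RefSeq, GRCm38.p6, chromosome 9, 7784390 to 7784409 and 7784423 to 7784440, plus strand) are shown with the seed, bases 2 to 8, in capitals.
mmu-miR-5618-5p: uACCCUUUacaccguguagu
mmu-miR-5618-3p: cUAUACCAuguaaagggu
The other pair are the 300 bases around the starts of Yap1 (chr9:8004547-8004846, minus strand) and Met (chr6:17463707-17464006, plus strand), which lie inside the shared stretch of the respective amplicons, so that the copies of each gene carry its promoter. Capitals mark GGAATG or its reverse complement CATTCC, the core motif of Tead factors, searched on both strands; 14.7% of the 32851 promoters in the RefSeq table hold it (4817 promoters). A match is a description of these letters and not a binding site.
Yap1 promoter: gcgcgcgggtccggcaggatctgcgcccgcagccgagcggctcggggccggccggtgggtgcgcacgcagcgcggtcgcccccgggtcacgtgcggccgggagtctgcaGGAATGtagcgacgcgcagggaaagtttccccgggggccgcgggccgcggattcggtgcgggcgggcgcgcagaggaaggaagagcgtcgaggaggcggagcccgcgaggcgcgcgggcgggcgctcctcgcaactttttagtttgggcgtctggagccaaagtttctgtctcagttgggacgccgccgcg
Met promoter: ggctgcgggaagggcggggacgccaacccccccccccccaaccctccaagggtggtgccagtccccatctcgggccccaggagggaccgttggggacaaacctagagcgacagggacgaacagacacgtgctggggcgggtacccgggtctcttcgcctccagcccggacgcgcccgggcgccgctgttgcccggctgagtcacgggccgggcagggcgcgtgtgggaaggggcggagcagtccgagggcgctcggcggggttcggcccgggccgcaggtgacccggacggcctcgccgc
The Yap1 window held the motif once, and the Met window did not hold these letters.

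Across the genome, the placed genes that passed a test over all genes lay on 2 chromosomes, a short stretch of chromosome 9 around Yap1 and most of chromosome 12. Tests of chromosome means, given further below, called other chromosomes as well. With limma on segment values, 1171 of 43513 genes (2.69%) passed an adjusted p of 0.05, each of them higher in sarcomatoid tumours, and 0 were lower. Lower calls appeared under some alternatives: 143 without tumour 10, 133 without tumour 26.2, 29 without tumour 51, 102 on unsegmented log2 ratios and 34 against carcinosarcomas only. At an unadjusted limma p under 0.05 there were 14128 genes. Of the 885 called genes with a position, 33 were on chromosome 9 and 852 on chromosome 12, which is 69.0% of its 1235 placed genes. The median difference over all 43513 genes was 0.09, and without tumour 26.2 it was 0.03. Fisher's exact test on the copy scores called 29 genes gained more often in sarcomatoid tumours (0.0666%) and 852 genes lost more often in epithelial-rich tumours (1.96%), and 822 genes were called by both methods. Without tumour 26.2 limma called 2504 genes and without tumour 53 it called 1761. Without tumour 32, 26.2 or 45 Fisher's exact test called 1285, 769 or 591 genes, and without any 1 of the other 18 tumours it called 482 to 485. Within series 5289, limma called 1911 genes (4.39%), of which 593 were among the 1171. By position, 824 were on chromosome 8, 400 on chromosome 12, 173 on chromosome 18 and 25 on chromosome 9. Fisher's exact test called 0 there, with 45 gains and 2185 losses at an unadjusted Fisher's exact p under 0.05. Its smallest unadjusted p was 0.00097, so with 5 epithelial-rich tumours a count of 0 does not show that a difference was absent.

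Yap1 and its neighbours had the highest difference among the called placed genes. The Yap1 segment value in the sarcomatoid tumours was 5.20 in tumour 32, 4.89 in 20, 4.84 in 40.1, 4.57 in 29, 4.50 in 41, 4.48 in 7.1, 4.37 in 37, 4.26 in 9.1, 3.89 in 43, 2.95 in 51, 0.44 in 10 and -0.23 in 26.1. In the 9 epithelial-rich tumours it ran from -0.36 to 0.05. The 10 highest sarcomatoid tumours thus lay far above the epithelial-rich range, tumour 10 a little above it and tumour 26.1 inside it. The mean was 3.68 ± 1.77 (SD, n = 12) against -0.08 ± 0.13 (SD, n = 9), a difference of 3.76 on the log2 scale (SE 0.54, limma adjusted p = 3.88e-05). A gain call was made in 11 of 12 sarcomatoid and 0 of 9 epithelial-rich tumours (Fisher's exact test, adjusted p = 0.00614). In tumour 10 the call did not come from a focal change: the whole of chromosome 9 had a mean segment value of 0.44 there. Within series 5289 the counts were 11 of 12 and 0 of 5, and the difference was 3.71 (limma adjusted p = 0.00198). In the 3 spleens Yap1 lay between -0.00136 and 0.00126.

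**Figure D1:**
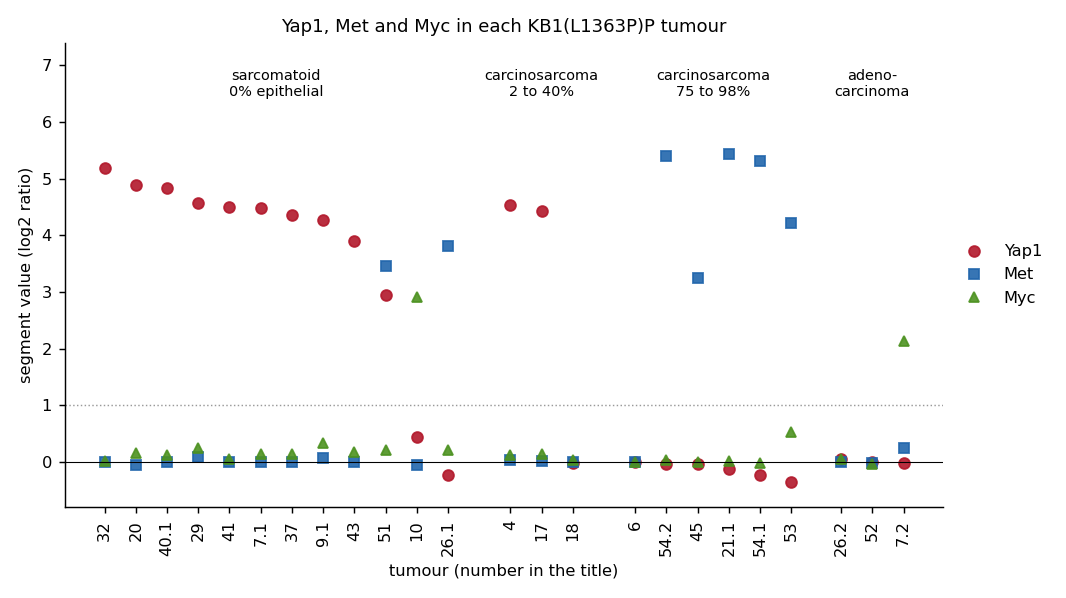
Segment value (log2 ratio, vertical axis) of Yap1 (circles), Met (squares) and Myc (triangles) in each of the 24 KB1(L1363P)P tumours, 1 column per tumour, ordered by histology; the dotted line marks a segment value of 1. Yap1 lies at 2.95 or above in 10 of 12 sarcomatoid tumours and at 0.05 or below in the 9 epithelial-rich tumours, where Met lies at 3.25 or above in 5 of 6 carcinosarcomas.

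The high-level gain around Yap1, meaning neighbouring genes at a segment value of at least 1, was short in each of the 10 tumours. It spanned 1.22 to 4.93 Mb (median 4.31 Mb) and 13 to 41 placed genes, and by the formula behind the copy score the values of Yap1 correspond to 15.4 copies in tumour 51 and 73.3 in tumour 32, averaged over the cells of the sample. The stretch shared by the 10 tumours was 0.429 Mb of chromosome 9 (7751672 to 8181112, GRCm38.p6) with 10 placed genes, 6 of them protein coding. These were Tmem123, Birc2, Birc3, Yap1, Cfap300 and Cep126. Birc2 and Birc3 are inhibitors of apoptosis that also act in NF-kappa B signalling, and Cfap300 and Cep126 are genes of cilia and centrosomes. The shared stretch was set by few tumours: its left end by tumour 9.1 and its right end by tumours 37 and 43. Ends can be placed only to the nearest gene, and to this resolution tumours 29 and 32 shared both ends, as did tumours 20 and 51.

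Left of the core, the genes from Dync2h1 on were at high level in 9 of the 10 tumours, and those further left in 6 or fewer. In tumour 9.1 the segment value of Mmp3, a matrix metalloproteinase in a cluster with Mmp13, Mmp12, Mmp10, Mmp8, Mmp7 and others, was 0.43 while Yap1 was at 4.26. Mmp3 had a mean of 3.36 ± 1.99 (SD, n = 12) in sarcomatoid tumours and differed by 3.44 (SE 0.61, limma adjusted p = 0.000642). On the right, Trpc6, a calcium-permeable channel gene, and Pgr, the progesterone receptor gene, were at high level in 8 of the 10; Pgr stood at -0.16 in tumour 37 and -0.22 in tumour 43. Pgr differed by 2.96 (SE 0.68, limma adjusted p = 0.00919), and within series 5289 the limma adjusted p was 0.08. Arhgap42 was at high level in 7 of the 10 and Cntn5 in 6. Dync2h1, at the left edge, was lower than Yap1 in some tumours, at 1.52 against 4.84 in tumour 40.1.

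**Figure D2:**
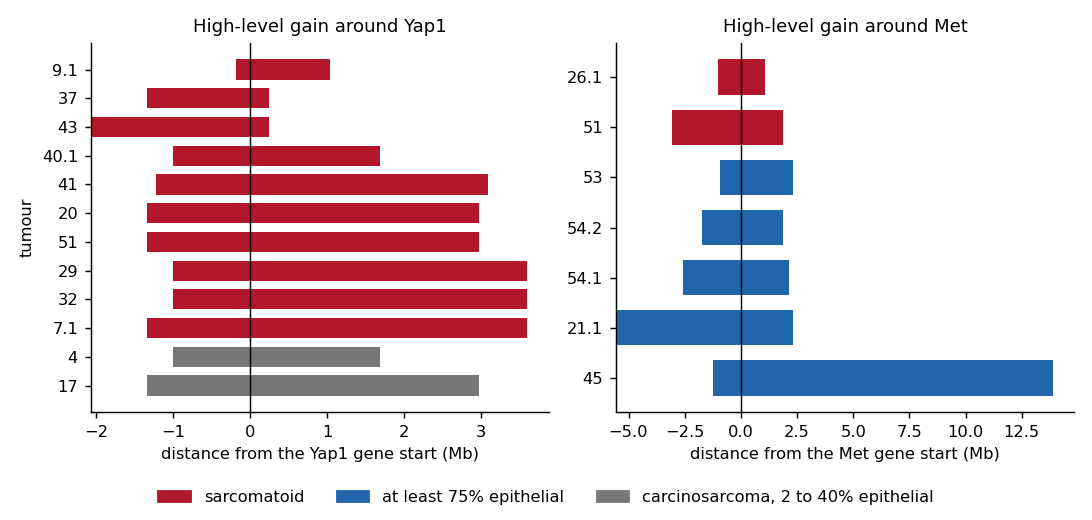
Extent of the high-level gain (neighbouring genes at a segment value of at least 1) around Yap1 and around Met, 1 bar per tumour, as distance in Mb from the lower coordinate of the gene (vertical line); colour gives the group. Each Yap1 bar is 1.22 to 4.93 Mb long, and the bar around Met in tumour 45 extends over 15.1 Mb.

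Met showed the opposite order, without passing the test over all genes. Among epithelial-rich tumours its segment value was 5.44 in tumour 21.1, 5.41 in 54.2, 5.32 in 54.1, 4.22 in 53 and 3.25 in 45. The other 4 lay between -0.02 and 0.25. Among sarcomatoid tumours it was 3.82 in tumour 26.1 and 3.45 in tumour 51, and the other 10 lay between -0.06 and 0.09. High-level gain of Met was thus found in 2 of 12 sarcomatoid tumours, in 5 of 6 epithelial-rich carcinosarcomas and in 0 of 3 adenocarcinomas. The difference in means was -2.04 (SE 0.79, limma adjusted p = 0.1). With the 6 carcinosarcomas alone as the comparison group it was -3.33 (limma adjusted p = 0.00753), and with the 3 adenocarcinomas alone 0.53 (limma adjusted p = 0.562). Within series 5289, where Met was gained in 2 of 12 and 2 of 5 tumours, it was -1.18 (limma adjusted p = 0.305). The stretch shared by the 7 Met-amplified tumours was 1.99 Mb of chromosome 6 (16524755 to 18515217) with 22 placed genes, among them Met, Cav1 and Cav2, which code for caveolins of the cell membrane, Capza2, an actin-capping protein gene, and Wnt2.

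High-level gain in at least 2 of the 21 tumours was found for 245 genes (0.563% of all genes). Each of the 12 sarcomatoid tumours had a high-level gain, and in each of them it included Yap1, Met or Myc. Tumour 51 had both Yap1 and Met, tumour 26.1 had Met, and tumour 10 had Myc, the gene of a growth-promoting transcription factor, at 2.91 together with the non-coding neighbour Pvt1. In 9 of the 12 it was the tumour's single high-level region, and the amplified length was 1.59 to 17.6 Mb per tumour (median 4.46 Mb). Tumour 51 carried an additional gain with Cdk6, a kinase of the cell cycle, at 2.15. In the epithelial-rich group 6 of 9 tumours had Met or Myc at high level, and the amplified length was 3.6 to 42.3 Mb (median 7.88 Mb). The other 3 had other regions. Tumour 6 had up to 3.90 on chromosome 10, with Lin28b, a gene that blocks let-7 maturation, at 2.74. Tumour 52 had gains on chromosomes 16 and X, and tumour 26.2 on chromosomes 4, 10 and 13. Myc reached 2.13 in adenocarcinoma 7.2, and its group means did not separate: 0.39 ± 0.80 (SD, n = 12) against 0.30 ± 0.71 (SD, n = 9), a difference of 0.09 (SE 0.30, limma adjusted p = 0.835).

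Of 39 measured amplification targets, Yap1, Birc2 and Birc3 passed limma and Fisher's exact test, and the other 36 did not, against 2.69% of all genes for limma. The list's median difference was 0.10, beside 0.09 over all genes. Of 22 Hippo pathway genes, 2 passed limma, Yap1 and Sav1, the scaffold of the Mst kinases on chromosome 12. Sav1 differed by 0.42 (SE 0.09, limma adjusted p = 0.00835), and within series 5289 by 0.29 (limma adjusted p = 0.0951). The paralog of Yap1, Wwtr1, differed by 0.19 (SE 0.09, limma adjusted p = 0.130), the Tead1 gene by 0.08 (SE 0.09, limma adjusted p = 0.517) and the kinase gene Lats2 by 0.21 (SE 0.10, limma adjusted p = 0.132). Of 23 genes listed for Met and Ras signalling 0 passed limma or Fisher's exact test, with 7 at an unadjusted limma p under 0.05. This list includes Cav1, Cav2 and Capza2, neighbours of Met in its amplicon, and genes of 1 amplicon are not independent of each other.

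Chromosome 12 was lower in epithelial-rich tumours. Its mean segment value was -0.91 in tumour 6, -0.87 in 53, -0.85 in 54.1, -0.79 in 52, -0.57 in 21.1, -0.49 in 7.2, -0.46 in 45, -0.39 in 26.2 and -0.37 in 54.2. Among sarcomatoid tumours it was -0.52 in tumour 32, had a median of -0.22 and was highest at -0.05. The ranges overlapped through tumour 32 alone. The group means were -0.22 ± 0.14 (SD, n = 12) and -0.63 ± 0.22 (SD, n = 9), a difference of 0.41 (exact two-sided permutation test, adjusted p = 0.00116 over 20 chromosomes). Within series 5289 the difference was 0.34 (exact permutation test, adjusted p = 0.0113), and the chromosome passed in 29 of 29 alternatives.

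Sarcomatoid tumours were not all neutral on this chromosome: 9 of 12 had a mean below -0.1, while tumours 10, 29 and 37 lay between -0.06 and -0.05. No breakpoint was found on it in 10 of 12 sarcomatoid tumours, nor in epithelial-rich tumours 6, 53 and 54.1, in which 100% of its genes were lost. Mean coverage by loss calls was 8.33% of chromosome 12 genes in sarcomatoid tumours, all of it from tumour 32, and 80.6% in epithelial-rich tumours. In the latter, 317 placed genes (180 protein coding) had a loss call in 9 of 9 tumours, in 2 runs at 71540607 to 88591977 and 90399690 to 100520837, separated by Nrxn3 at 8 of 9. The proximal end was lost less often, in 4 of 9 tumours for the first 3.26 Mb of genes, and tumour 45 had a high-level gain of 1.20 there. Tumours 7.2, 26.2 and 45 had 9, 5 and 3 breakpoints on the chromosome, and tumours 21.1, 52 and 54.2 had 1 each.

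**Figure D3:**
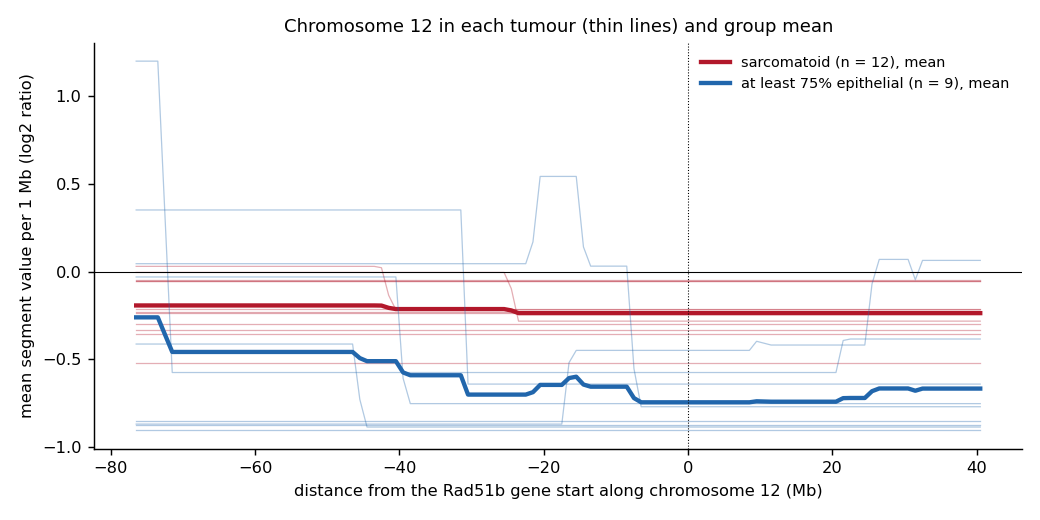
Segment value (log2 ratio, mean of genes per 1 Mb, joined by lines) along chromosome 12 as distance in Mb from the lower coordinate of Rad51b, for each tumour (thin lines) and as the mean of each group (thick lines). The sarcomatoid mean stays near the chromosome value of -0.22, and the epithelial-rich mean is -0.75 at Rad51b and -0.26 over the first 41 genes of the chromosome.

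Of 25 measured cancer genes of chromosome 12, 16 passed limma, each of them higher in sarcomatoid tumours, and 11 passed Fisher's exact test for loss. The list was drawn from a chromosome on which 852 (limma) and 612 (Fisher's exact test) of the 1235 placed genes passed, so its counts show nothing beyond the chromosome. Its members lie on shared segments and are not independent of each other. The repair genes among them were Mlh3 of mismatch repair, Fancm, a DNA translocase of the Fanconi pathway, and Rad51b and Xrcc3, which act in homologous recombination. Rad51b had a median of -0.23 and a range of -0.52 to -0.05 in sarcomatoid tumours, and of -0.91 to -0.45 with a median of -0.77 in epithelial-rich tumours. It was lost in 1 of 12 and 9 of 9 tumours and differed by 0.51 (SE 0.07, limma adjusted p = 1.21e-05). Mlh3 and the genes of Max, the partner of Myc, of the hypoxia factor Hif1a, of the nuclear receptor Esrrb and of the ligand Tgfb3 lay on the same segments and had the same values and counts to 2 decimals. Fancm, lost in 1 of 12 and 8 of 9, differed by 0.42 (SE 0.09, limma adjusted p = 0.00835), and Xrcc3, lost in 1 and 7, by 0.43 (SE 0.10, limma adjusted p = 0.00835).

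Foxa1, a pioneer factor of luminal mammary cells, was lost in 1 of 12 and 8 of 9 tumours and differed by 0.46 (SE 0.09, limma adjusted p = 0.00347). Dicer1, which cuts miRNA precursors, was lost in 1 of 12 and 7 of 9 and differed by 0.43 (SE 0.10, limma adjusted p = 0.00835). Within series 5289 Rad51b still passed (difference 0.45, limma adjusted p = 0.000916), whereas Foxa1 (0.37, limma adjusted p = 0.074), Dicer1, Fancm and Xrcc3 (each at 0.0951) did not. The genes nearer the centromere did not pass in all 21 tumours either: Twist1, a mesenchymal transcription factor gene, differed by 0.32 (SE 0.14, limma adjusted p = 0.127), Mycn by 0.27 (SE 0.14, limma adjusted p = 0.170) and Dnmt3a by 0.07 (SE 0.20, limma adjusted p = 0.799).

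Besides chromosome 12, the exact permutation test called 5 other chromosomes of 20. Chromosomes 4, 16, X and 14 were lower in epithelial-rich tumours and chromosome 1 was lower in sarcomatoid tumours. Chromosome 4 averaged 0.01 ± 0.08 (SD, n = 12) against -0.17 ± 0.18 (SD, n = 9; exact permutation adjusted p = 0.0116), chromosome 16 averaged 0.04 ± 0.08 against -0.12 ± 0.17 (adjusted p = 0.0123) and chromosome X 0.07 ± 0.11 against -0.08 ± 0.14 (adjusted p = 0.0123). Chromosome 14 averaged -0.05 ± 0.12 against -0.29 ± 0.29, and chromosome 1 averaged -0.10 ± 0.12 against 0.03 ± 0.06 (exact permutation adjusted p = 0.0347 for either). Calls for chromosomes 4, 16 and X each held in 27 of 29 alternatives, and those for 1 and 14 in 13 and 11. Within series 5289 the called chromosomes were 8, 12, 16 and 18, so chromosomes 1, 4, 14 and X lost the call there. Their differences in that series were -0.13, 0.17, 0.19 and 0.11 (exact permutation adjusted p = 0.115, 0.053, 0.161 and 0.149), beside -0.12, 0.18, 0.24 and 0.15 over the 21 tumours. The chromosome 8 difference in that series was 0.43 (exact permutation adjusted p = 0.00646), and over the 21 tumours it was 0.22 (adjusted p = 0.0752). Chromosome 15, which carries Myc, had nearly the same mean in both groups, 0.16 ± 0.08 (SD, n = 12) and 0.15 ± 0.22 (SD, n = 9). It was above 0.1 in 10 of 12 sarcomatoid and in 3 of 9 epithelial-rich tumours, while the group difference was 0.02 (exact permutation p = 0.827).

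**Figure D4:**
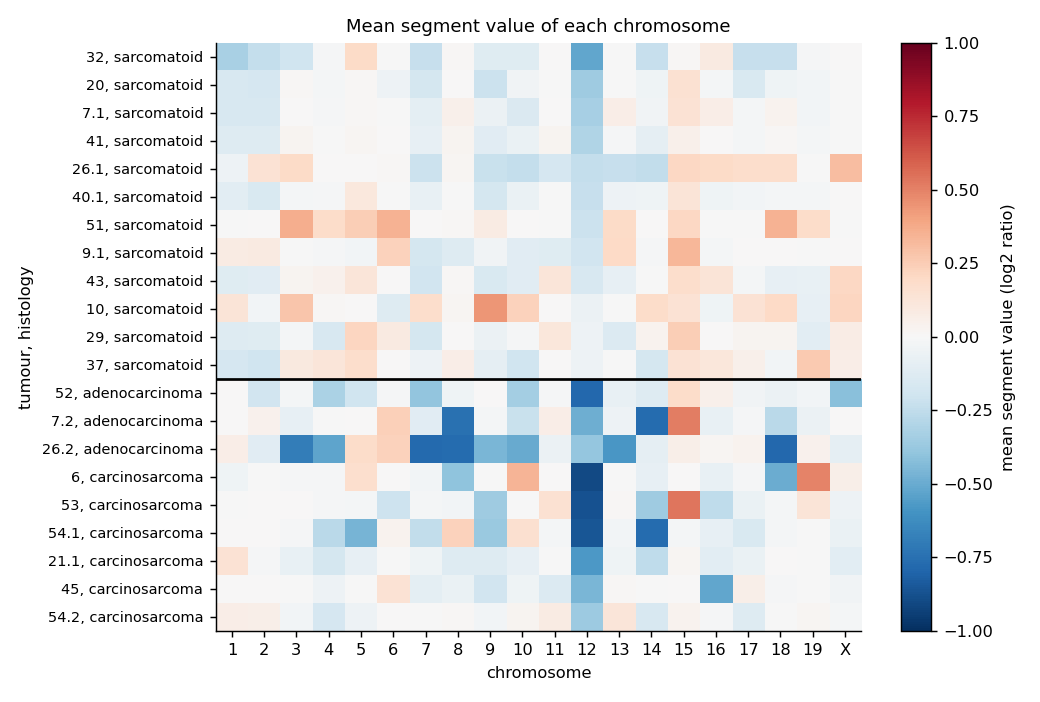
Mean segment value (log2 ratio, colour) of each chromosome (columns) in each of the 21 tumours (rows, with tumour number and histology), sarcomatoid above the black line. Chromosome 12 is below -0.3 in 9 of 9 epithelial-rich and 3 of 12 sarcomatoid tumours, and chromosome 15 is above 0.1 in 10 of 12 sarcomatoid tumours.

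The sarcomatoid genomes had fewer breaks. Breakpoints, counted wherever the segment value changed from one placed gene to the next, numbered 2 to 40 (median 15.5) per sarcomatoid tumour and 25 to 108 per epithelial-rich tumour, and 9 of the 12 sarcomatoid tumours lay below the lowest epithelial-rich one. The means were 16.5 ± 12.7 (SD, n = 12) and 64.3 ± 25.5 (SD, n = 9; difference -47.8, exact two-sided permutation p = 2.38e-05, adjusted over 7 measures 0.000167). Tumour 7.1 had 2 breakpoints, with a median step of 4.68, which were the ends of its single high-level region around Yap1. Large-scale transitions, breaks between segments of at least 10 Mb, which are a common measure of defective homologous recombination, numbered 2.25 ± 2.49 (SD, n = 12) and 8.78 ± 3.46 (SD, n = 9; difference -6.53, exact permutation p = 0.000126, adjusted 0.000294). Within series 5289 the differences were -41.3 breakpoints (exact permutation p = 0.000808) and -6.95 transitions (exact permutation p = 0.00129).

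The share of genes with a copy score other than 2 was 2.37% ± 3.49 (SD, n = 12) in sarcomatoid and 14.8% ± 11.9 (SD, n = 9) in epithelial-rich tumours, a difference of -12.4 points (exact permutation p = 0.000126, adjusted over 7 measures 0.000294). Lost genes made up 0.502% and 11.8%, with 0% in 11 of 12 sarcomatoid tumours, and gained genes 1.87% and 3.02%. Losses shallower than about -0.42 receive no call and are not in these shares. In sarcomatoid tumours 7.1, 20, 29, 37, 40.1, 41 and 43 the share was 0.0758% to 0.131%. Tumour 26.2, at 44.6%, was far above the other epithelial-rich tumours, which lay between 3.53% and 16.7%; without it the difference was -8.69 points. Smaller shifts went the other way. Genes beyond a segment value of 0.1 in size made up 46.2% ± 13.7 (SD, n = 12) against 31.7% ± 10.2 (SD, n = 9), a difference of 14.4 points (exact permutation p = 0.0156, adjusted over 7 measures 0.0273). Within series 5289 it was 14.3 points (exact permutation p = 0.0619), and against the 3 adenocarcinomas 6.05 points (exact permutation p = 0.468). At a limit of 0.2 it was -6.39 points (exact permutation p = 0.342). By direction, genes above 0.1 made up 17.8% in sarcomatoid and 6.90% in epithelial-rich tumours (exact permutation unadjusted p = 0.0356). Genes below -0.1 made up 28.4% and 24.8% (exact permutation unadjusted p = 0.518). The median step at a breakpoint was 1.14 ± 1.69 (SD, n = 12) against 0.31 ± 0.11 (SD, n = 9), a difference of 0.83 (exact permutation p = 0.224). The sarcomatoid mean was carried by tumours 7.1 (4.68), 37 (4.53) and 20 (1.92): the group medians were 0.32 and 0.26, and the difference was 0.51 without tumour 7.1 and 0.52 without tumour 37.

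**Figure D5:**
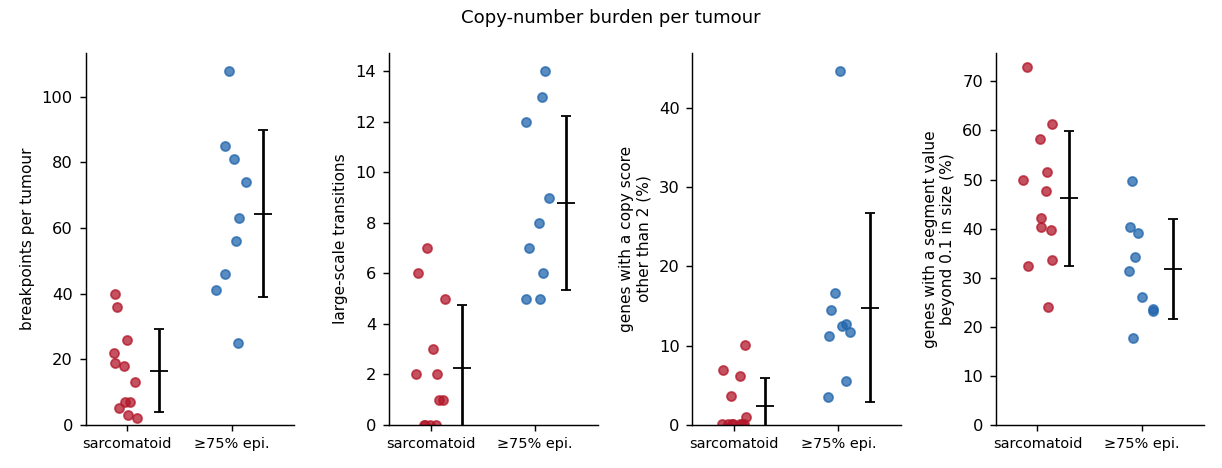
Breakpoints, large-scale transitions, percent of genes with a copy score other than 2 and percent of genes beyond a segment value of 0.1 in size, 1 point per tumour, with the mean and SD of each group in black (n = 12 and 9); lower SD bars that reach below 0 are cut at the axis. The first 3 measures are lower in sarcomatoid tumours and the last is higher.

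In the other gene lists, each gene that passed limma lay on chromosome 12. Of 33 tumour suppressors 0 passed limma, with 10 at an unadjusted limma p under 0.05 and 0 by Fisher's exact test; their median difference was 0.09, the same as over all genes to 2 decimals. Rb1, the cell-cycle brake on chromosome 14, was lost in 0 of 12 and 3 of 9 tumours and differed by 0.31 (SE 0.11, limma adjusted p = 0.0961). Arid1a, a chromatin remodelling gene on chromosome 4, differed by 0.23 (SE 0.07, limma adjusted p = 0.0958). Of 36 genes that act in homologous recombination or alter PARP inhibitor response, Rad51b, Fancm and Xrcc3 passed limma, beside 2.69% of all genes, and Rad51b and Fancm passed Fisher's exact test for loss, beside 1.96%. The list's median difference was 0.09. Of 32 genes of epithelial and mesenchymal identity, Foxa1 and Tgfb3 passed limma and Fisher's exact test for loss, both lower in epithelial-rich tumours; the list's median was 0.03.

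The engineered genes did not separate the groups. Brca1 averaged 0.02 ± 0.07 (SD, n = 12) against 0.06 ± 0.12 (SD, n = 9; difference -0.04, SE 0.05, limma adjusted p = 0.544), and Brca2, which is not targeted here, 0.09 ± 0.10 against 0.17 ± 0.27 (limma adjusted p = 0.493). Trp53 was checked against its neighbours, since only part of a gene is deleted: its log2 ratio minus the mean of 10 genes on each side was -0.04 ± 0.10 (SD, n = 12) and -0.08 ± 0.10 (SD, n = 9), a difference of 0.04 (exact permutation p = 0.367). The same quantity was -0.00591, -0.00693 and 0.0716 in the 3 spleens, a range that overlaps those of both tumour groups, so at this resolution the value does not check the Trp53 label.

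The same comparison was made in KP tumours, which in the usual naming lack Trp53 and carry no Brca1 variant, with 10 sarcomatoid tumours against 8 adenocarcinomas and carcinosarcomas of at least 75% epithelial content. The 10 KP sarcomatoid tumours form a library series of their own, so series and histology cannot be told apart there. In KP, Yap1 averaged 4.01 ± 1.51 (SD, n = 10) against 0.96 ± 1.96 (SD, n = 8) and was gained in 9 of 10 and 3 of 8 tumours. Its difference was 3.06 (SE 0.68, limma adjusted p = 0.00417), and the difference between the genotypes in this contrast was 0.70 (SE 0.93, limma adjusted p = 0.956). Rad51b differed by 0.40 in KP (SE 0.08, limma adjusted p = 0.000906) and was lost in 0 of 10 and 7 of 8 tumours; the genotypes differed by 0.11 (SE 0.10, limma adjusted p = 0.956). For Met the KP difference was -1.89 (SE 0.84, limma adjusted p = 0.345). The KP contrast called 1127 genes (2.59%), of which 1084 were shared with KB1(L1363P)P, 92.6% of the calls there and 96.2% of those in KP. Of the KP calls, 813 lay on chromosome 12 and 29 on chromosome 9. Shared genes thus lie on few segments and are not independent of each other. The KP contrast was fitted in the same model as the KB1(L1363P)P tumours, so its standard errors draw partly on those tumours. The interaction test called 0 of 43513 genes, with 1139 at an unadjusted limma p under 0.05.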

How the data were processed

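Tumour DNA was sequenced at low coverage and summarised in 20 kb bins. Per the submitters' processing notes, reads were handled with cutadapt 2.5, BWA 0.7.17, SAMtools 1.10 and Picard on build mm10. How segments were made, and against which reference ratios were taken, is not given in the sources used here. The authors deposited log2 ratios, segmented log2 ratios and a whole-number copy score per gene; rounding the copies implied by a segment value (neutral at 2) gave this score in 99.9919% of entries. A gain or loss is a score above or below 2. Of 43513 symbols, 32687 were placed with the GRCm38.p6 gene table, and 10826 were tested without a position.

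Segment values were compared with limma 3.58.1 (R 4.3.3) and scores with Fisher's exact test, each with Benjamini-Hochberg adjustment over all genes (both directions together for Fisher's exact test). Chromosome means and genome-wide measures were compared by exact two-sided permutation of the tumours (Python 3.11.15, SciPy 1.17.1), with p-values adjusted over 20 chromosomes or 7 measures. Breakpoints are changes above 1e-06 between neighbouring placed genes. For large-scale transitions, segments under 3 Mb were removed and those within 0.1 joined. Named genes were the engineered genes, up to 8 called genes per list with the largest difference (or the 2 with the smallest p), listed genes in called regions or at high level in at least 2 tumours, and the most often gained and lost listed genes; Mmp3, Pgr, Arhgap42, Wwtr1, Tead1, Lats2, Cdk6, Lin28b, Twist1, Mycn and Nrxn3 were added after their values were seen. The tumours, gene lists and tests were chosen with earlier results of these data known. Scripts were tested on simulated data. Alternatives were other tumour subsets, scaling, library series as a term, a replicate block and leaving out each tumour. Some listed genes are not reported here.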

Additional observations from a re-analysis of the deposited data

Results flagged for a closer look

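Among the 9 epithelial-rich tumours, adenocarcinoma 26.2 stood apart in its share of genes with a copy score other than 2, at 44.6% against 3.53% to 16.7% in the other 8. Its mean segment value was -0.69 on chromosome 3, where the other 8 had a lowest value of -0.09. On chromosome 7 it was -0.77, against -0.39 to -0.01 in the others. On chromosome 13 it was -0.58, against -0.07 to 0.12. Chromosome 19 averaged 0.50 in carcinosarcoma 6 and -0.06 to 0.13 in the others. Chromosome X averaged -0.42 in adenocarcinoma 52 and -0.11 to 0.06 in the others. Myc stood at 2.13 in adenocarcinoma 7.2 and at -0.03 to 0.54 in the others. These came from 34 values checked for a tumour far from the rest of its group, of which 7 had one; chance alone gives about 1 in 20.

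Of the 3 carcinosarcomas of low epithelial content, which entered neither group, 2 had Yap1 at high level. Its segment value was 4.43 in tumour 17 (5% epithelial) and 4.53 in tumour 4 (2% epithelial) and -0.02 in tumour 18 (40% epithelial), beside -0.00136 to 0.00126 in the 3 spleens.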

How the results depend on the processing

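The call for Yap1, Birc2, Birc3 and Tmem123 held in 33 of 33 alternatives (difference 3.62 to 4.12), and those for breakpoints, large-scale transitions and the share of altered genes in 28 of 28. On chromosome 12, the calls for Rad51b, Max, Mlh3 and Tgfb3 held in 32 of 33 (highest limma adjusted p = 0.0752). The call for Foxa1 held in 30 of 33, and those for Dicer1, Fancm and Xrcc3 in 29. Of 1254 alternative values for 38 named genes, 1174 kept direction and side of the threshold, 46 lost the call (17 genes), 8 gained one (6 genes) and 26 turned sign (10 genes). The limma count of 1171 genes was 1911 within library series 5289, 7795 against adenocarcinomas only and 2792 with 1 tumour per number. The count was 2597 with library series as a term and 65 with all 98 tumours in the fit (21 lower, and 40 among the 1171). It ran from 1164 to 2504 with 1 tumour left out. With tumour number as a replicate block (random, since numbers rarely span both groups) it was 1171, and the block changed no call among the named genes. The Fisher count of 881 genes was 482 to 1285 with 1 tumour left out. It was 0 within series 5289 and 0 against adenocarcinomas only (64 gains and 4048 losses at an unadjusted Fisher's exact p under 0.05). With 5 and 3 epithelial-rich tumours in these subsets, the smallest unadjusted Fisher's exact p was 0.00097 and 0.0022. Counts of 0 there do not show that a difference was absent. The 6 called chromosomes became 2 against carcinosarcomas only and 4 to 8 with 1 tumour left out. The difference in share beyond 0.1 was 14.3 points in series 5289, 6.05 against adenocarcinomas and 10.3 with the low-epithelial tumours added (exact permutation p = 0.0619, 0.468 and 0.107). With the mean step in place of the median, the step difference was 0.89 (exact permutation p = 0.0298). The cause of these changes was not tested.

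None of the turned signs passed the test. Against adenocarcinomas only, Met, Capza2, Cav1 and Cav2 differed by 0.53, Amotl1 by -0.00654, and Myc and Pvt1 by -0.32. In series 5289, and with series as a term, Myc and Pvt1 differed by -0.0488 and Dnmt3a by -0.081. With 1 tumour left out, Myc and Pvt1 differed by -0.139 (without tumour 10) to 0.318 (without tumour 7.2), Dnmt3a by -0.0126 to 0.251 and Trp53 by -0.0178 to 0.0168. Dnmt3a differed by -0.00789 against carcinosarcomas only. Brca1 differed by 0.0288 on unsegmented log2 ratios. Trp53 differed by 0.0563 there, by 0.0133 with the low-epithelial tumours added and by 0.00318 after centring on the autosomal median. Read depth is unknown, amplicon ends are resolved only to the nearest gene, and losses shallower than about -0.42 receive no call.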

Other observations

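The 3 carcinosarcomas of 2% to 40% epithelial content are given as values. Tumours 4 (2%) and 17 (5%) had Yap1 at 4.53 and 4.43, chromosome 12 at a mean of -0.33 and -0.24 with 0 breakpoints on it, and 21 and 14 breakpoints in all. Tumour 18 (40%) had Yap1 at -0.02, chromosome 12 at -0.57 with 84.3% of its genes lost, and 18 breakpoints in all.

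Of the tumours that share a number, 54.1 and 54.2, both carcinosarcomas with Met amplification, shared 6 breakpoints, which is 10.7% of those in 54.1 and 14.6% of those in 54.2. Tumours 26.1 (sarcomatoid) and 26.2 (adenocarcinoma) shared 0, as did 7.1 (sarcomatoid) and 7.2 (adenocarcinoma). The 207 other pairs of the 21 tumours shared 0 to 11 (median 0), and the 35 other pairs within the epithelial-rich group also shared 0 to 11 (median 1).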
